A study of Mus musculus with 6 samples.

Results

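The semaphorins are a family of secreted and membrane-bound guidance proteins, and the plexins and neuropilins are their receptors. The genes described here were found by symbol among the Affymetrix probe sets that are annotated to a single gene. They are 31 genes with 78 probe sets, of 18193 genes with 34945 such probe sets, and they comprise 20 semaphorins, 9 plexins and 2 neuropilins. Their expression was compared between 3 arrays of neural crest stem cells (NCSC) and 3 arrays of mesenchymal stem cells (MSC), both grown from the bone marrow of adult mice. Both cell types came from female mice aged 10 weeks, of C57BL/6 x SV129 background and wnt1/CRE-R26R-lacZ genotype. In such mice Wnt1 sequences drive the Cre recombinase, which turns on a lacZ reporter in neural crest cells and their progeny. Both cell types were cultured in Mesencult, through 5 or more passages, and clones were then picked. The labels do not say how many clones or animals stand behind the replicates, so the p-values measure only the spread between these arrays, which may be technical, and effects of clone and of cell type cannot be told apart.

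Semaphorins bind plexins through a conserved Sema domain, and the intracellular part of a plexin acts on small GTPases, so that the cytoskeleton and adhesion of the receiving cell change. Most secreted class 3 semaphorins need a neuropilin as a coreceptor, whereas the membrane-bound classes 4 to 7 bind plexins directly. In the embryo these signals keep migrating crest cells on their paths, lead crest cells to the heart, and steer axons, Schwann cells and blood vessels.

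Array values were GCRMA intensities on a log2 scale, where the lowest value is 2.12. A value above 4 was taken as above background. A gene was tested when a probe set of it was above 4 on at least 3 of the 6 arrays, and the brightest such probe set stood for the gene. Differences are NCSC minus MSC with the standard error (SE) of limma's fit, and a gene was called at a Benjamini-Hochberg adjusted p under 0.05 over all 10501 genes tested. Where the mean of a cell type was at or under 4, the fold change is a lower bound, taken against a value of 4, and is written "at least N-fold". Intensities of different probe sets are not on a common scale, so no gene's level is set against that of another. The summed levels of marker lists below are an exception. Bright probe sets dominate these sums, which serve to compare arrays.

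The arrays of a cell type were alike, with Pearson correlations across the tested genes from 0.985 to 0.997 among NCSC and from 0.99 to 0.997 among MSC. NCSC 3 and MSC 2 stood apart from the other arrays of their cell type. Set against NCSC 1 and NCSC 2, a 2-fold gap was exceeded on NCSC 3 by 4.98% and 4.63% of the tested genes, and the shares for MSC 2 against MSC 1 and MSC 3 were 2.69% and 2.62%. The labels were checked against marker genes. All 6 neural crest markers, Sox10, Ngfr, Foxd3, Tfap2a, Pax3 and Erbb3, were called higher in NCSC. Of 9 mesenchymal stromal markers 6 were tested, of which Eng, Nt5e, Pdgfrb and Cd44 were higher and Vcam1 and Pdgfra lower in NCSC, while Thy1 and Lepr were above 4 on no array of either type. None of 7 endothelial markers was above 4 on any array. Of 8 neuronal markers only Stmn2 was, and it was lower in NCSC. Of 8 macrophage and blood markers Cd68 and Lyz2 were higher in NCSC and the summed level of the list was 9.51 to 9.78 on NCSC arrays against 7.18 to 7.22 on MSC arrays on the log2 scale. Cd68 and Lyz2 averaged 8.80 and 8.33 in NCSC and 2.77 and 6.36 in MSC. Csf1r was tested and not called. Cd14 was not tested and ran the other way, at 2.19, 2.16 and 2.19 on the NCSC arrays against 4.63, 3.96 and 5.15 on the MSC arrays. The defining markers Ptprc, Itgam, Adgre1 and Aif1 were above 4 on no array. Of 5 Schwann cell markers with a probe set Cdh19 and Mbp were called higher in NCSC, and the summed level was 12.69 to 13.39 on NCSC arrays and 5.39 to 5.92 on MSC arrays. On the NCSC arrays that sum was close to the level of Cdh19 alone, at 13.34, 13.16 and 12.66. S100b, which was not tested, was at 7.72, 7.29 and 2.15 on the NCSC arrays and at 2.15 on each MSC array, and Mag and Gfap were above 4 on no array. Of the markers called, Ngfr, Foxd3, Erbb3, Nt5e, Cd68 and Cdh19 passed the filter only through NCSC and Stmn2 only through MSC, so that these had to differ. The part of either list in the results below was not tested.

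Most of the measurable semaphorins and several of their receptors were higher in NCSC. Of the 31 genes 22 were tested, and 19 of these were called, 16 higher and 3 lower in NCSC. Over all tested genes 64.1% were called, 35% higher and 29.1% lower. A call with a difference of at least 2-fold was made for 15 genes that were higher and 2 that were lower, against 15.1% and 14% of all tested genes. The values of the 3 NCSC arrays did not overlap those of the 3 MSC arrays for 21 of the 22, and for 71.2% of all tested genes. The counts lean on the filter, because Sema4f, Sema6a and Sema6d passed it only through NCSC and Sema3f only through MSC, so that these 4 had to differ. The median difference was 1.77 over the 22 tested genes and 0.056 over all tested genes. Without the filter it was 0.61 over all 31 genes and 0 over all 18193 genes. On whole cultures, fewer expressing cells and less RNA per cell cannot be told apart.

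**Figure D1:**
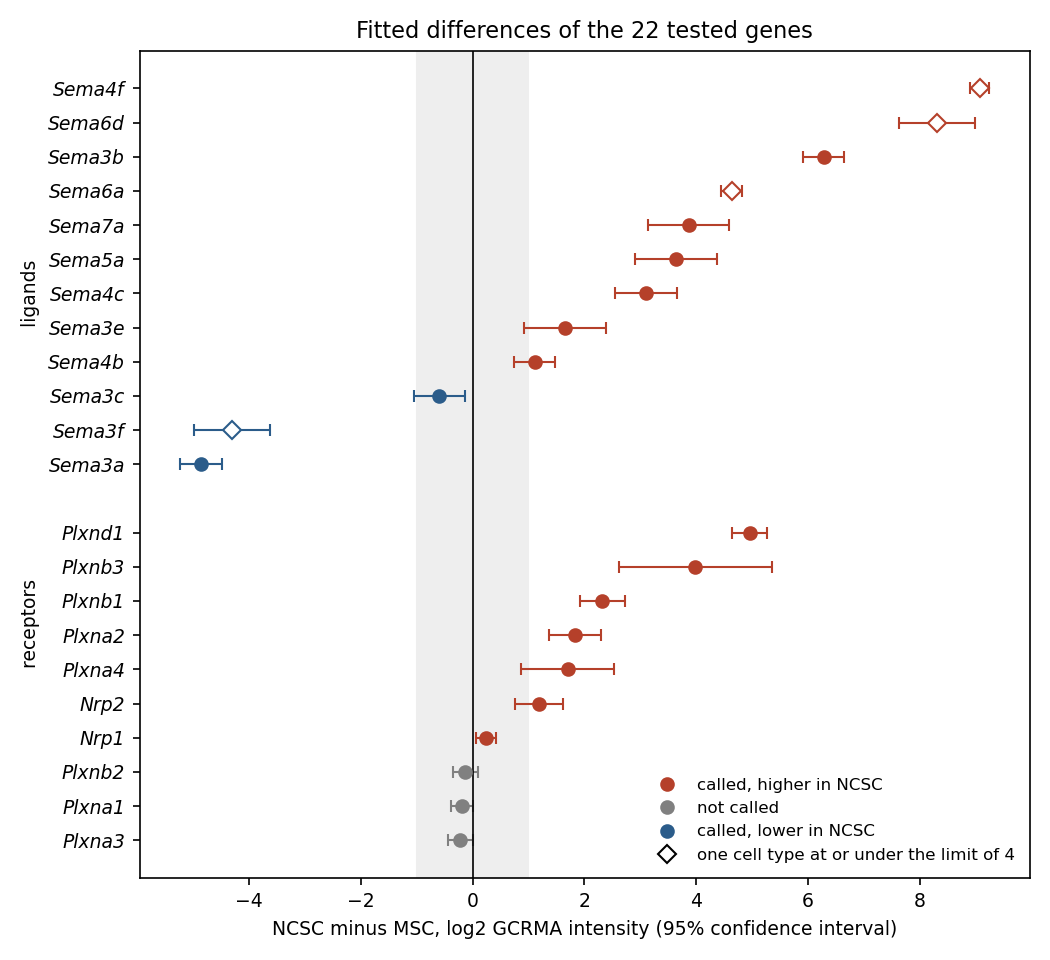
Fitted differences between NCSC and MSC for the 22 tested genes, with ligands above receptors and bars for the 95% confidence interval; the grey band marks differences under 2-fold. Of the ligands 9 lie to the right and 3 to the left of 0, and open diamonds mark genes for which the mean of a cell type was at or under 4, whose fitted difference rests on the floor of the values.

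The secreted class 3 semaphorins moved in both directions. Of 7 members 5 were tested and called, with Sema3b and Sema3e higher and Sema3a, Sema3f and Sema3c lower in NCSC. Over all tested genes 64.1% were called, 35% higher and 29.1% lower. Sema3f passed the filter only through MSC and had to be lower. Sema3a, the first collapsing factor known for axon tips and a repellent that acts through Nrp1 and class A plexins, had log2 intensities of 5.37, 5.42 and 4.93 on the NCSC arrays, against 10.10, 10.23 and 9.98 on the MSC arrays. Each NCSC array was thus far below each MSC array. The difference was -4.86 ± 0.15 (SE), 29.0-fold, with a limma adjusted p of 1.97e-06. Both other probe sets of Sema3a fell to means of 3.71 and 2.50 in NCSC, under 4, against 8.29 and 7.39 in MSC. This gives lower bounds of 19.4-fold and 10.5-fold for the fall. The dimmer of them passed the filter only through MSC and had to differ.

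Sema3f, a repellent that acts through Nrp2 and that is known to keep trunk crest cells of the mouse embryo out of parts of the somites, was at 3.70, 2.77 and 2.64 on the NCSC arrays, against 7.40, 7.26 and 7.36 on the MSC arrays. No NCSC array was above 4 in this probe set, and Sema3f was at least 10.1-fold lower in NCSC (limma adjusted p = 4.67e-05). Since Sema3f passed the filter only through MSC, that p-value adds no support for the direction. Its other kept probe set, of a type that may also bind other transcripts, differed by -1.90 ± 0.70 and was not called in the fit over all kept probe sets (adjusted p = 0.0555). There MSC 3, at 4.31, lay close to NCSC 3, at 4.23, while MSC 1 and MSC 2 were at 6.45 and 7.12. Sema3c, which draws cardiac crest cells into the outflow tract, was bright in both cell types, at 12.04, 12.04 and 11.92 on the NCSC arrays and 12.44, 13.02 and 12.32 on the MSC arrays. It differed by -0.59 ± 0.19 (adjusted p = 0.0331), or by -0.38 without MSC 2, and the call was lost without the filter (adjusted p = 0.114), without any single NCSC array (0.0764 to 0.0781) and without MSC 1 (0.0517). Its other probe set differed by -1.30 ± 0.19 and was called.

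Sema3b, a ligand of the neuropilins, was far brighter in NCSC. It was at 12.03, 12.12 and 12.27 on the NCSC arrays, against 5.61, 6.13 and 5.81 on the MSC arrays. The groups were far apart, by 6.28 ± 0.15 or 77.9-fold (limma adjusted p = 5.39e-07). In its other probe sets Sema3b had means of 8.61 and 8.06 in NCSC and of 3.85 and 3.02 in MSC. It was thus at least 23.5-fold and 16.7-fold higher there. The dimmer of them passed the filter only through NCSC and had to differ. Sema3e, which binds Plxnd1 without a neuropilin and steers growing blood vessels, was at 10.63, 10.75 and 10.20 on the NCSC arrays, against 8.55, 9.53 and 8.55 on the MSC arrays. MSC 2 was the nearest MSC array to NCSC, and the difference of 1.65 ± 0.30 was called (adjusted p = 0.00372). MSC 1 and MSC 3 had an identical value, which may be the lowest value of that probe set. The difference may therefore be a lower bound. All 4 probe sets of Sema3e were kept and called higher, by 1.10 to 1.89. In the dimmest one MSC 1 and MSC 2 were likewise identical, at 4.95. Sema3d was above 4 only on NCSC 3, at 4.11, and Sema3g on no array, and neither was tested.

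**Figure D2:**
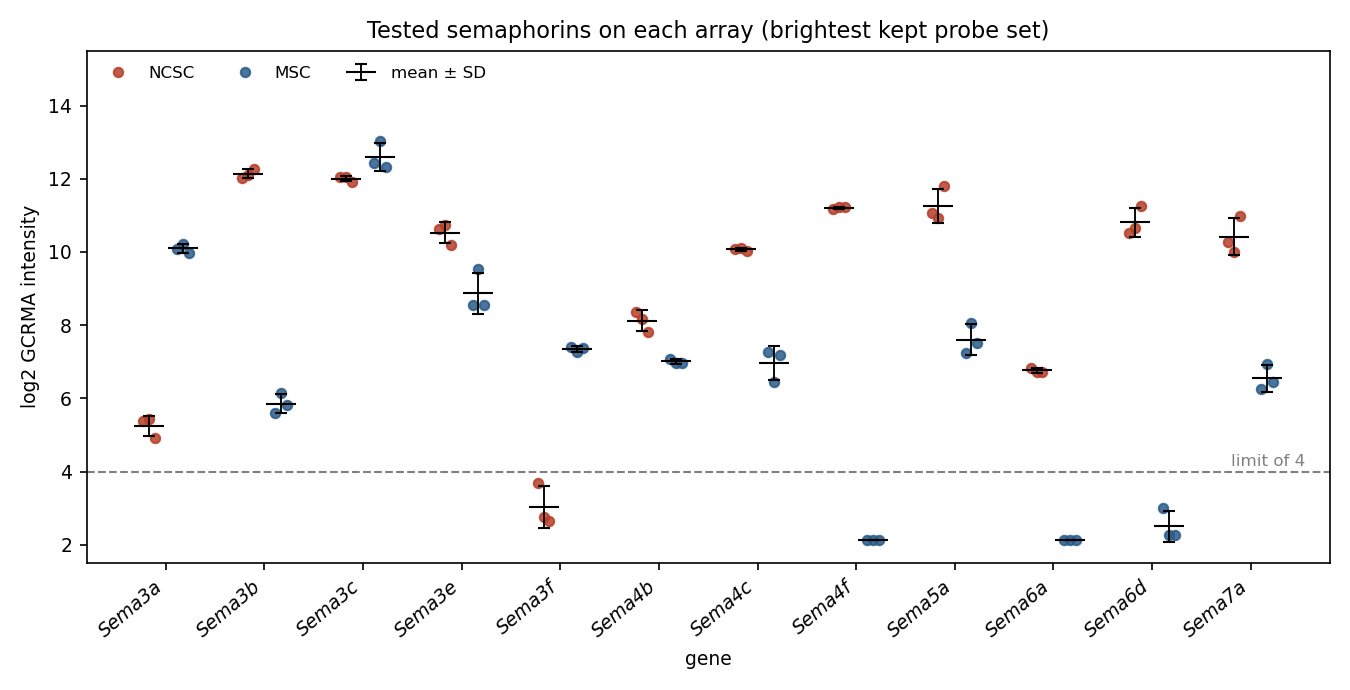
Log2 GCRMA intensity of the 12 tested semaphorins on each array, with NCSC left of MSC, bars for mean ± SD (n = 3 each) and a dashed line at the limit of 4. Sema4f, Sema6a and Sema6d are near the floor of 2.12 on the MSC arrays, and Sema3f is under the limit on the NCSC arrays.

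In both pairs of tested class 3 genes with the fewest genes between them, the partners moved in opposite directions. In the order of RefSeq genes of the mouse assembly GRCm38.p6, Sema3a and Sema3e lie on chromosome 5 with 3 other protein-coding genes between them, and Sema3b and Sema3f lie on chromosome 9, also with 3 between them. In each of these pairs 1 gene was higher and the other lower in NCSC. How often neighbouring genes move in opposite directions was not tested, and the direction of Sema3f was set by the filter. Sema3d lies next to Sema3a, with 0 protein-coding genes between them, and was not tested. Promoter sequences from RefSeq (GRCm38.p6), in windows of 300 bases around a gene's start, are shown for the chromosome 5 pair, for Plxnd1 as the receptor of Sema3e, and for Sema4f, which had the largest fitted difference of the 22 genes by the brightest probe set of each. The table used held none for Sema3b and Sema3f. Capitals mark matches on either strand to the GC box GGGCGG, the site of Sp1-type factors, or to ACAAAG, a core of sites bound by SOX factors. The promoters lie at chr5:13396534-13396833 (plus strand), chr5:14025026-14025325 (plus strand), chr6:115994956-115995255 (minus strand) and chr6:82939720-82940019 (minus strand), and each is written 5′ to 3′ on the strand of its gene.
Sema3a: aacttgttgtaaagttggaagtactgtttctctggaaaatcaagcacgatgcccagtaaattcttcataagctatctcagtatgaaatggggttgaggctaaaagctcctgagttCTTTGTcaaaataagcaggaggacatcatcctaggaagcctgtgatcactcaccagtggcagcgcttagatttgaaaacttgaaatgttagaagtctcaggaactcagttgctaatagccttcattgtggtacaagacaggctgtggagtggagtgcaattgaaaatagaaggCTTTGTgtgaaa
Sema3e: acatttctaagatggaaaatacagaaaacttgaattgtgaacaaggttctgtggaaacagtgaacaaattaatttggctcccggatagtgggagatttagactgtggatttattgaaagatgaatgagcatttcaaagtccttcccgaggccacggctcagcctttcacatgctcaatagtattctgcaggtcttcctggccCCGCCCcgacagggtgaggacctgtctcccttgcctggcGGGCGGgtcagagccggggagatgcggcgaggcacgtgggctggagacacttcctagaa
Plxnd1: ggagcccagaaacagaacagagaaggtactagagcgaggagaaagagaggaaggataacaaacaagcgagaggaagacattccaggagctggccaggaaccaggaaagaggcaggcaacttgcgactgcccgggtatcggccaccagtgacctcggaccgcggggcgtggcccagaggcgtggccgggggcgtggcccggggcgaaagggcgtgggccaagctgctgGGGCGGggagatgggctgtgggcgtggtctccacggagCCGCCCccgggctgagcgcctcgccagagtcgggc
Sema4f: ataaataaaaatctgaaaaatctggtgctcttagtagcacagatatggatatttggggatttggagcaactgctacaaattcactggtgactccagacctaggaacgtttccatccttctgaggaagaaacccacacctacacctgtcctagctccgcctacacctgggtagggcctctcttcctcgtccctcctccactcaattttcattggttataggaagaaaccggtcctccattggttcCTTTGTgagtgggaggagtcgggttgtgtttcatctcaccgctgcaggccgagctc
The Sema3a window held 2 matches to ACAAAG, no GC box and 2 CpG dinucleotides, at a GC content of 41.3%. The Sema3e window held no ACAAAG, 2 GC boxes and 11 CpG at 50.7% GC, and the Plxnd1 window held no ACAAAG, 2 GC boxes and 23 CpG at 67.0% GC. In the Sema4f window were 1 ACAAAG, no GC box and 7 CpG at 48.7% GC. No match to either motif overlapped one to the other in these 4 windows. The table held 37 promoters of 26 of the 31 genes, of which 27 (73.0%) had a GC box and 8 (21.6%) an ACAAAG, against 35.7% and 18.7% of all 32851 promoters of that length. The E-box CANNTG, on either strand, was in 56.8% of the 37 and 72.3% of all, and TATAAA in 0 of the 37 and 13.6% of all. The median GC content was 63.7% in the 37 promoters and 52.7% in all promoters. These matches describe letters and do not show binding.

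The membrane-bound semaphorins that could be tested were all higher in NCSC. Over all tested genes 64.1% were called, 35% higher and 29.1% lower. Of these semaphorins Sema4f, Sema6a and Sema6d passed the filter only through NCSC, so that they had to be higher. In class 4, 3 of 6 genes were tested, in class 5, 1 of 2, in class 6, 2 of 4, and in class 7 the single gene, and each of those tested was called. Sema4f, a class 4 protein known from the contact of Schwann cells with axons, was at 11.17, 11.22 and 11.22 on the NCSC arrays, against 2.12 on each MSC array. MSC thus had the floor value, and Sema4f was at least 147-fold higher in NCSC (limma adjusted p = 1.2e-08). That probe set is of a type that may also bind other transcripts. In the other one, NCSC averaged 7.97 and MSC 2.42, so that Sema4f was at least 15.7-fold higher. Both probe sets passed the filter only through NCSC, so that their p-values add no support for the direction.

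Sema4c, a ligand of Plxnb2, was at 10.09, 10.10 and 10.02 on the NCSC arrays, against 7.28, 6.44 and 7.19 on the MSC arrays. It rose by 3.10 ± 0.23 (limma adjusted p = 7.4e-05), and the NCSC arrays were nearly equal. Sema4b, a class 4 protein found at synapses, rose less, by 1.11 ± 0.15 (adjusted p = 0.00104). Its values were 8.37, 8.18 and 7.81 on the NCSC arrays and 7.09, 6.98 and 6.97 on the MSC arrays, with NCSC 3 nearest to MSC. Sema4a, Sema4d and Sema4g were above 4 on no array. The first 2 of these are known from immune cells, where Sema4d binds Plxnb1 or Cd72.

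Sema5a, whose thrombospondin repeats set class 5 apart and which binds Plxnb3, was at 11.05, 10.92 and 11.79 on the NCSC arrays, against 7.25, 8.07 and 7.50 on the MSC arrays. The groups did not overlap, and Sema5a rose by 3.65 ± 0.30, or 12.5-fold (limma adjusted p = 0.000124). The second probe set rose by 3.54 ± 0.36. Sema5b was above 4 on no array.

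In class 6, Sema6d was at 10.52, 10.66 and 11.27 on the NCSC arrays, against 2.99, 2.26 and 2.26 on the MSC arrays. This ligand of Plxna1, known from heart development in the chick, was at least 112-fold higher in NCSC (limma adjusted p = 2.53e-06). Only 1 of its 4 probe sets was kept, and the other 3 were at no more than 2.25 on any array. Sema6a, a ligand of Plxna2 and Plxna4 that crest-derived boundary cap cells use to hold motor neurons inside the spinal cord, was at 6.84, 6.73 and 6.71 on the NCSC arrays and at 2.12 on each MSC array. It was at least 6.78-fold higher in NCSC (adjusted p = 1.18e-07). Here too 1 of 3 probe sets was kept, and the other 2 stayed at 2.12 on all arrays. Sema6d and Sema6a passed the filter only through NCSC, so that their p-values add no support for the direction. Sema6b and Sema6c were above 4 on no array.

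Sema7a, the only member held in the membrane by a lipid anchor, binds Plxnc1 and integrin beta 1. It was at 10.28, 9.99 and 10.98 on the NCSC arrays, against 6.24, 6.95 and 6.44 on the MSC arrays. The difference was 3.87 ± 0.30, or 14.6-fold (limma adjusted p = 9.57e-05). Its other probe set was above 4 only on NCSC 3, at 4.85. Plxnc1 was above 4 on no array in any of its 6 probe sets, whereas the integrin gene Itgb1 was bright in both cell types and differed by -0.55 ± 0.096 (adjusted p = 0.00292).

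Among the receptors, Plxnd1, Plxnb1, Plxnb3, Plxna2, Plxna4 and both neuropilins were called higher in NCSC, and none was called lower. Of 11 plexins and neuropilins 10 were tested, 7 were called higher and 3 were not called. The share called was 70%, near that of all tested genes, and the count called is no result about these genes. Of all tested genes 64.1% were called, 35% higher and 29.1% lower. Plxnd1, the receptor of Sema3e in vessels, was at 13.43, 13.33 and 13.13 on the NCSC arrays, against 8.29, 8.54 and 8.18 on the MSC arrays. It was bright on every NCSC array and rose by 4.96 ± 0.13, or 31.1-fold (limma adjusted p = 8.03e-07), the largest fitted difference among the receptors by the brightest probe set of each gene. The endothelial markers, whose cells use Plxnd1 in the embryo, were at the floor on these arrays.

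Plxnb3, a receptor of Sema5a, was at 10.54, 10.35 and 8.46 on the NCSC arrays, against 5.37, 6.04 and 5.97 on the MSC arrays. NCSC 3 was well below NCSC 1 and NCSC 2 but above all MSC arrays. The difference was 3.99 ± 0.56, or 15.9-fold (limma adjusted p = 0.00124), and 4.65 without NCSC 3. The same order was seen in its other probe set, with 8.10, 7.58 and 5.41 on the NCSC arrays and 2.30, 2.24 and 2.54 on the MSC arrays, where Plxnb3 was at least 8.17-fold higher. That other probe set passed the filter only through NCSC, so that it had to differ. The probe set that stands for the gene is of a type that may bind related transcripts.

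Plxnb1, the receptor of Sema4d, was at 8.28, 8.15 and 7.85 on the NCSC arrays, against 5.51, 5.82 and 5.98 on the MSC arrays, and rose by 2.32 ± 0.17 (limma adjusted p = 7.02e-05). A second probe set was at 8.85 ± 0.031 (SD, n = 3) in NCSC and under 4, at 3.61 ± 0.14, in MSC, which gives a bound of at least 28.8-fold. Both probe sets separated the cell types, but the second passed the filter only through NCSC and had to differ. Plxnb2, a receptor of Sema4c, was bright in both cell types, at 12.02, 11.99 and 12.09 on the NCSC arrays and 12.13, 12.30 and 12.06 on the MSC arrays. The groups overlapped and the difference of -0.13 had a 95% confidence interval of -0.35 to 0.093.

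**Figure D3:**
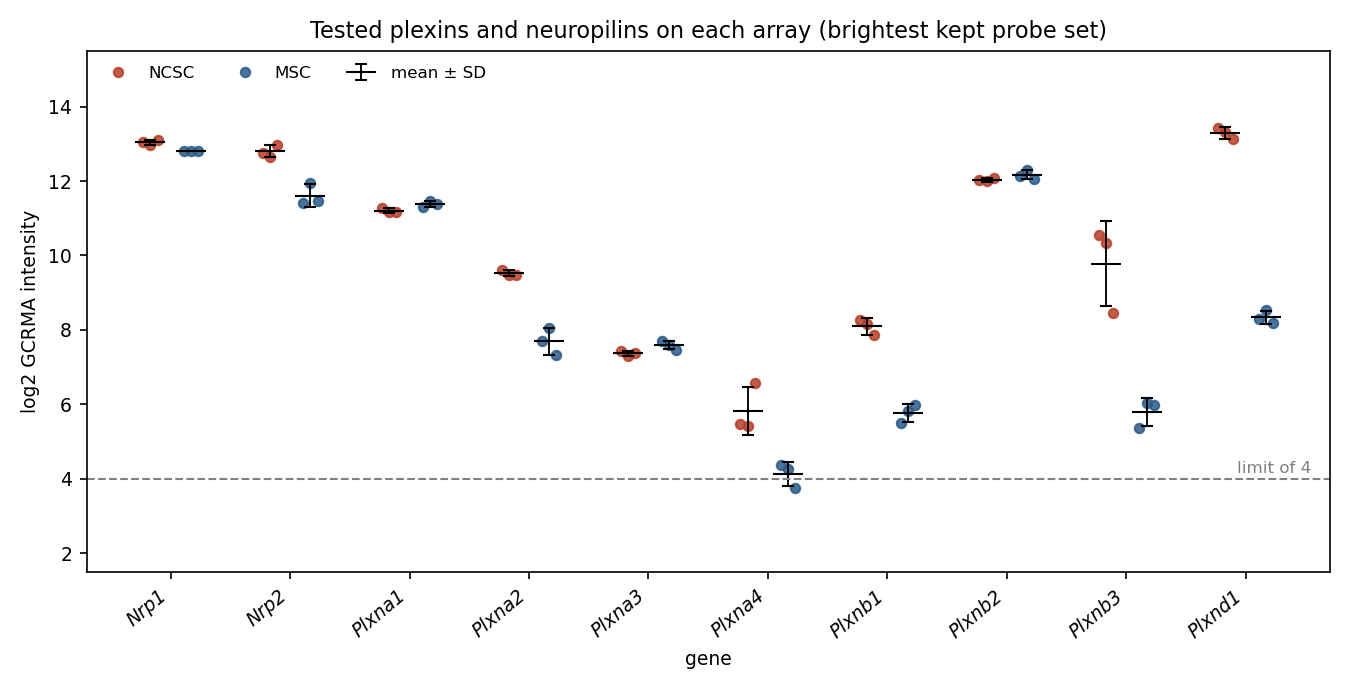
Log2 GCRMA intensity of the 10 tested plexins and neuropilins on each array, with NCSC left of MSC, bars for mean ± SD (n = 3 each) and a dashed line at the limit of 4. Plxnd1 and Plxnb3 are the farthest apart between the cell types, and Plxnb2 is the gene whose arrays overlap.

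The class A plexins, which signal for the neuropilins, split by gene. Plxna2, which is known from crest cells on their way to the heart, was at 9.61, 9.49 and 9.48 on the NCSC arrays, against 7.70, 8.06 and 7.32 on the MSC arrays. It rose by 1.84 ± 0.19 (limma adjusted p = 0.000304), and all 4 of its probe sets were called higher, by 1.21 to 2.41. Plxna4, a receptor of Sema3a and of class 6 semaphorins, was dim, at 5.48, 5.43 and 6.57 on the NCSC arrays and 4.37, 4.25 and 3.75 on the MSC arrays. NCSC 3 was the highest, MSC 3 was under 4, and the difference of 1.70 ± 0.34 was called (adjusted p = 0.00547). The other probe set of Plxna4 stayed at 2.12 on all arrays.

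Plxna1, a receptor of Sema6d, was at 11.28, 11.18 and 11.15 on the NCSC arrays, against 11.31, 11.47 and 11.39 on the MSC arrays. Each NCSC array was below each MSC array, but by little, and the difference of -0.19 (95% confidence interval -0.39 to 0.013) was not called. Plxna3, known as a receptor of Sema3f, was at 7.43, 7.29 and 7.39 on the NCSC arrays, against 7.70, 7.60 and 7.47 on the MSC arrays. Its difference of -0.22 (-0.45 to 0.0051) was not called (limma adjusted p = 0.0786), although it was after quantile normalization (0.031), and its dimmer probe set differed by 0.18 in the other direction. For Plxna1, Plxna3, Plxnb2 and Nrp1 the whole interval lay within a 2-fold change.

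The neuropilins, which also bind VEGF-type growth factors, were bright in both cell types. Nrp2 was at 12.76, 12.66 and 12.97 on the NCSC arrays, against 11.40, 11.96 and 11.46 on the MSC arrays. It rose by 1.19 ± 0.17, or 2.28-fold (limma adjusted p = 0.00144). In 2 of its other probe sets Nrp2 rose by 0.95, and the dimmest one differed by 0.45 and was not called. Nrp1 was at 13.04, 12.97 and 13.11 on the NCSC arrays and at 12.80 on each MSC array. The difference was called but small, at 0.24 ± 0.075 (adjusted p = 0.0307), and its 95% confidence interval was 0.057 to 0.42. The call was lost with the replicate number as a block (0.0899) and without NCSC 1, MSC 1 or MSC 3 (0.0814 to 0.091), and with the mean of its 4 probe sets Nrp1 differed by -0.045. In the fit over all kept probe sets, the other bright probe sets of Nrp1 differed by 0.11 and 0.22 and were not called. The dimmest probe set was at 5.80 ± 0.045 in NCSC and 6.56 ± 0.61 in MSC (SD, n = 3), and MSC 2 lay with the NCSC arrays there.

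**Figure D4:**
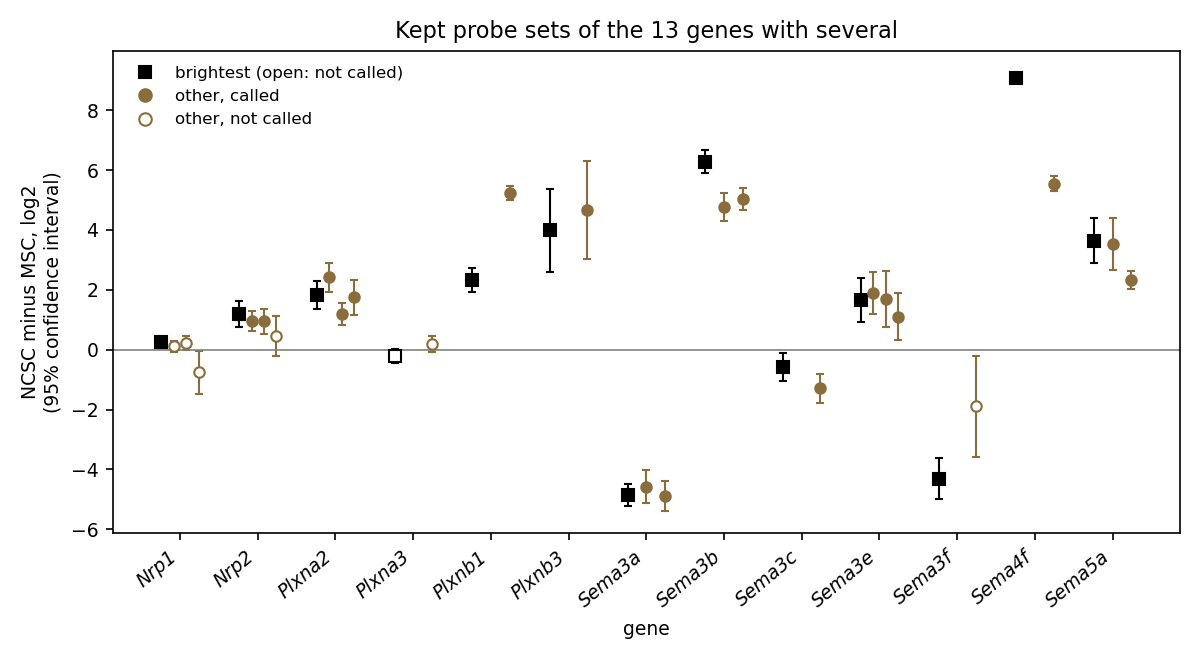
Fitted differences of the kept probe sets of the 13 genes that had more than 1, in the order of brightness from left to right, with 95% confidence intervals. The other probe sets pointed the same way as the brightest for 11 genes, and for Nrp1 and Plxna3 a dim probe set pointed the other way. Some dimmer probe sets passed the filter only through a single cell type and had to differ.

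The probe sets of a gene mostly gave the same direction. Of the 78 probe sets 46 were kept. Of these 37 were called in the fit over all 18640 kept probe sets with a single gene, against 60.1% of all of them. These counts lean on the filter too. The kept probe sets of Sema4f, Sema6a and Sema6d and the brightest of Sema3f passed it only through a single cell type. So did a dimmer probe set of Plxnb1, Plxnb3, Sema3a, Sema3b and Sema5a. All of these had to differ. Where the mean of a cell type was under 4, the fitted difference of a probe set rests on the floor of the values, and sizes were not compared between probe sets.

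Known pairs of ligand and receptor differed in whether both partners moved. Over 10 pairs taken from textbook knowledge, with Sema6a and Nrp2 in several, both partners were called higher in 5, the ligand was higher and the receptor not called in 2, and the ligand was lower and the receptor higher in 3. Both were higher for Sema3e with Plxnd1, Sema5a with Plxnb3, Sema6a with Plxna2 and with Plxna4, and Sema3b with Nrp2. For Sema4c with Plxnb2 and Sema6d with Plxna1 only the ligand was called. The pairs with a lower ligand were Sema3a with Nrp1 and Sema3f and Sema3c with Nrp2. Of 17 alternative settings, Sema3c lost its call in 5 and Nrp1 in 4, and Nrp1 changed sign in 1. Sema3f, Sema6a and Sema6d passed the filter only through a single cell type and had to differ. The pairs were chosen with the values in view and carry no test. Other pairs named above were left out, among them Sema3a with Plxna4 and Sema3f with Plxna3. Also left out were Sema7a with Plxnc1 and Sema4d with Plxnb1, in which Plxnc1 and Sema4d were not tested. Of all tested genes 35% were called higher and 29.1% lower.

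Of the 15 coreceptors and other semaphorin receptors 7 were tested, with 3 higher, 3 lower and 1 not called. That is 85.7% called, against 64.1% of all tested genes, of which 35% were higher and 29.1% lower. Nrcam, an adhesion molecule that joins neuropilin 2 in axons, was at least 110-fold higher in NCSC. L1cam, which joins neuropilin 1 in the response to Sema3a, averaged 13.55 in NCSC and was at 5.42 on every MSC array, with an SD of 0 there. Identical values on all arrays may be the lowest value of that probe set, so its fitted difference of 8.12 is read as a lower bound. The receptor kinase Met, a partner of class B plexins, rose by 1.21 ± 0.15. Ptk7, a plexin partner in crest cells of the frog, was at least 23.9-fold lower, and Erbb2, a partner of Plxnb1, and Itgb1, a receptor of Sema7a, were lower, with differences of -0.95 and -0.55. Nrcam passed the filter only through NCSC and Ptk7 only through MSC, so that both had to differ. The median over the 7 was -0.15. The other 8 genes of the list were above 4 on no array.

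Of 33 intracellular effectors with a probe set 32 were tested, with 10 higher, 14 lower and 8 not called, and a median of -0.18. The share called was 75.0%, near the 64.1% of all tested genes, and the count is no result about these genes. Rnd1, a GTPase that binds plexins, was at 4.16 in NCSC and 9.73 in MSC on average and differed by -5.57 ± 0.11 (limma adjusted p = 2.16e-07). The kinase Fes, which acts downstream of Sema3a, was at least 20.8-fold lower, and the GTPase-activating protein Sh3bp1, which acts downstream of Plxnd1, at least 7.34-fold lower. Gipc1, a partner of the neuropilin tail, differed by -1.57 ± 0.13. Among those that rose, the collapsin response mediator Dpysl4 was at least 7.45-fold higher, and the cofilin kinase Limk1, the kinase Cdk5 and the monooxygenase Mical3 rose by 2.23 ± 0.17, 1.79 ± 0.17 and 0.92 ± 0.15. Dpysl4 passed the filter only through NCSC and Fes only through MSC, so that both had to differ.

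The list of VEGF ligands and receptors, a family that shares neuropilins with the semaphorins, held 8 genes. Of these 6 were tested, with 4 higher, 1 lower and 1 not called, a median of 1.44 and 83.3% called. Of all tested genes 64.1% were called, 35% higher and 29.1% lower. The receptor Flt1 rose by 2.61 ± 0.25 and the ligands Pgf, Vegfc and Vegfb by 2.49 ± 0.11, 2.09 ± 0.23 and 0.78 ± 0.084. Vegfd was at least 208-fold lower in NCSC, with means of 2.67 in NCSC and 11.70 in MSC, and had to differ, since it passed the filter only through MSC. Of 8 proteases that cleave semaphorins 7 were tested, of which 4 were higher and 3 not called, with a median of 1.18 and 57.1% called. The share called was under the 64.1% of all tested genes, and the count is no result about these genes. The convertases Pcsk6 and Furin, of the kind that processes class 3 semaphorins, rose by 3.07 ± 0.28 and 1.24 ± 0.089, and the shedding proteases Adam10 and Adam17 by 1.42 ± 0.11 and 1.18 ± 0.087. Pcsk6 was above 4 on only 2 of the MSC arrays.

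**Figure D5:**
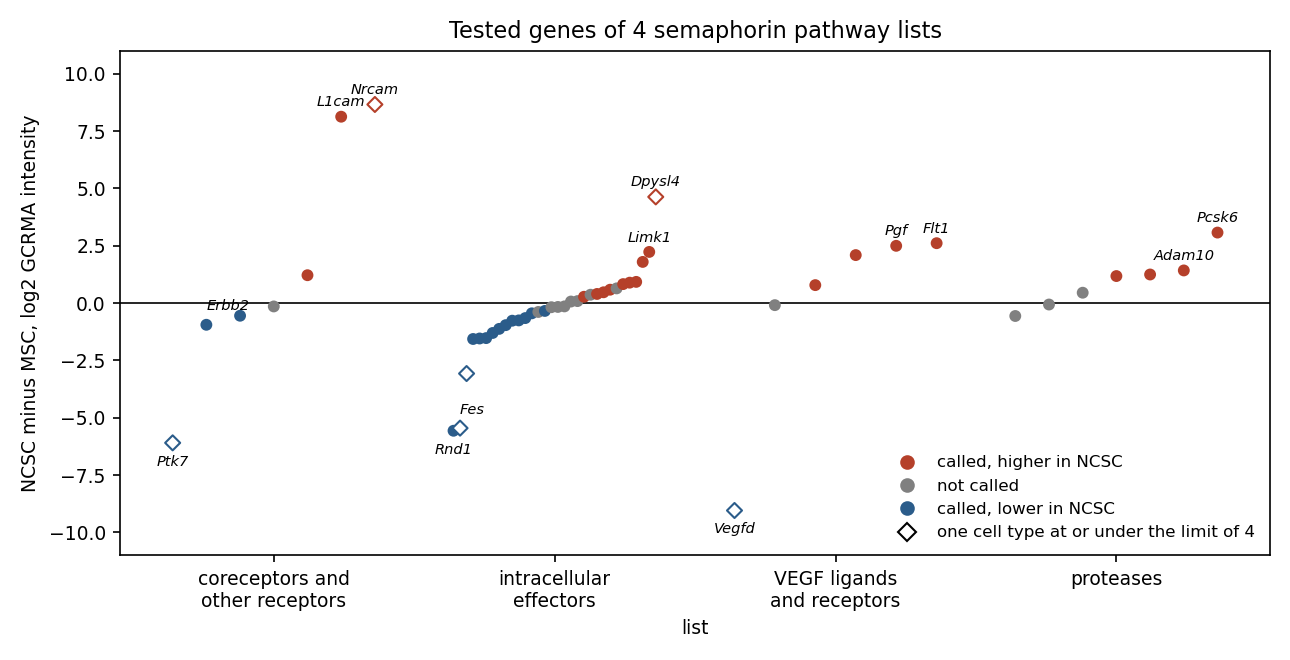
Fitted differences between NCSC and MSC for the tested genes of 4 lists, ordered within each list, with named genes at the ends and open diamonds where the mean of a cell type was at or under 4. Vegfd is the lowest of all points and Nrcam and L1cam are the highest. The differences of Vegfd and Nrcam rest on the floor of the values, and that of L1cam is read as a lower bound.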

How the data were processed

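Labelled RNA was hybridised to Affymetrix arrays, per the labels' protocols. The authors deposited linear probe set intensities. Per the submitters' processing notes these come from GCRMA, in a version not given in the sources used here, which removes background, normalizes the arrays and combines probes into sets. They ran from 4.36 to 116597, with 33.5% to 34.5% of each array at the lowest value, and were taken to log2 here. Of 45101 probe sets, 34945 had 1 gene, 932 several, 9160 none in the table used and 64 were controls. RefSeq genes matched 34741 of the first.

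Probe sets above 4 on at least 3 of 6 arrays were kept, and the brightest stood for a gene. NCSC minus MSC was fitted over 10501 genes by the moderated two-sided test of limma (version 3.58.1, R 4.3.3), and the fit was tested on simulated data. The planned test was kept. The genes, their lists and the alternatives were chosen with earlier results of these data known. Named genes are every member and, of each pathway list, up to 4 called genes at either end of the differences. List medians and counts carry no test. Of the effectors, 2 had no probe set with a single gene in the table used. The number of arrays limits the precision. Same-numbered replicates deviated with correlations of -0.098, 0.062 and 0.073, so the numbers were not taken to pair them.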

Additional observations from a re-analysis of the deposited data

How the results depend on the processing

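Over 17 alternative settings, 19 of the 22 tested genes kept their direction and their side of the threshold in every one, and Nrp1, Sema3c and Plxna3 did not. Nrp1 turned to -0.045 with the mean of its probe sets; there a dim probe set that pointed the other way enters the mean. Sema3c lost its call in 5 settings and Nrp1 in 4, and Plxna3 gained one with quantile normalization. The count of called members was between 17 and 20 throughout, with 15 or 16 higher and 2 to 4 lower. Leaving out 1 array at a time gave 17 to 19 called members and 5706 to 7184 called genes in all. Without NCSC 3 and MSC 2 together, 19 members were called, 16 higher and 3 lower. With the replicate block 18 members were called, 15 higher and 3 lower, with 6257 genes in all, and the block changed no call of a member other than that of Nrp1. Among called members, leaving out 1 array moved the difference of Plxnb3 most in fold terms, to 4.65 without NCSC 3, and that of Sema3c by over 1.5 times, to -0.38 without MSC 2. Differences with a cell type under 4 depend on the floor, as for Sema6a, which fell to 2.76 with values raised to 4 and to 2.61 with 16 added to each intensity, and Sema3f, at -3.34 and -2.86. Signal near background limits Plxna4, and Sema3d and the other 8 untested genes had too little of it for a test.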

Other observations

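Over the 22 tested genes, NCSC 3 lay farthest from the middle NCSC array for 15 and MSC 2 farthest from the middle MSC array for 12, against 58.3% and 58.7% of all tested genes that varied. The median SD between replicates was 0.16 in NCSC and 0.25 in MSC over these 22 genes, against 0.15 in NCSC and 0.12 in MSC over all tested genes.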
